A study of Homo sapiens with 3 samples.

Results

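The 26S proteasome is the protease that degrades ubiquitin-tagged proteins in the cytosol and nucleus. Its 20S core is a barrel of stacked rings in which alpha subunits form the outer gates and beta subunits the inner chamber, where PSMB5, PSMB6 and PSMB7 carry the proteolytic sites. The 19S cap sits on the end of the barrel. It has a base with an ATPase ring that unfolds substrates, and a lid that removes ubiquitin chains. Cells make the subunits in coordinated amounts, and NFE2L1 is the transcription factor known for raising many subunit genes together when proteasome activity is short.

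The messenger RNAs of 31 proteasome subunits were followed here in the human embryonic kidney line that the sample labels call HEK 293 and the study's methods HEK293T, the derivative carrying the SV40 large T antigen. The members were chosen by name, with 1 RefSeq transcript for each gene: PSMA1 to PSMA7 and PSMB1 to PSMB7 for the core (14 genes), and PSMC1 to PSMC6 with PSMD1 to PSMD4, PSMD6 to PSMD8 and PSMD11 to PSMD14 for the cap (17 genes). They are 31 of the 25443 transcripts with a value in any sample, and all 31 were listed in all 3 samples, so no member was lost to a filter on low values. The BDE-209 sample was kept for 48 h with 1 µM BDE-209 (decabromodiphenyl ether, a brominated flame retardant) and 1 mM of its solvent DMSO, the DMSO sample for 48 h with 1 mM DMSO, and the control in medium with neither agent. Only 1 sample was sequenced per condition, so none of the differences has a replicate check, no p-value is given, and an interval covers counting error between the libraries compared and nothing else. In bulk RNA, a change in the RNA of each cell and a change in the mix of cells cannot be told apart.

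The values are RPKM, which are reads divided by transcript length and by a read total of the library, 1 per RefSeq transcript. The steps of the RPKM values gave read totals of 4843624 for the control, 4782044 for DMSO and 4676793 for BDE-209, and with them a whole number of reads for each member. These totals are smaller than the uniquely mapped reads the study gives, by an uneven share among the samples. The reason is not given in the sources used here. Sums of all members, core and cap are therefore also given at the study's totals for DMSO against control and BDE-209 against DMSO. Sums of subgroups, markers and other lists are given at the recovered totals only. The study's totals shift any log2 sum by 0.042 in DMSO against control and by -0.039 in BDE-209 against DMSO. On a 1 kb transcript, 1 RPKM stood for 4.84, 4.78 and 4.68 reads. Of the markers set for the line, VIM had 299.1, 295.8 and 261.0 RPKM in control, DMSO and BDE-209, MYC had between 83.75 and 91.94, and PAX2 was not listed. NEFL, NEFM and KRT18 had between 24.40 and 54.09 RPKM, and LHX1 was low at 1.384, 0.9142 and 1.433 RPKM. Summed reads of these markers were lower in BDE-209 than in DMSO, with a log2 ratio of -0.124 (interval -0.179 to -0.068), and whether this bears on the subunits was not tested. Of the 6 listed markers, 4 were lower and 2 higher, and only VIM had an interval off 0, with -0.181 (-0.256 to -0.105). The blood markers PTPRC and CD3E, the fibroblast marker DCN and the kidney tubule marker UMOD were not listed, and the hepatocyte marker ALB had 1 read in each sample. COL1A1, the other fibroblast marker, had 4.877, 5.186 and 4.437 RPKM. The other mature kidney marker, NPHS1, had 11, 6 and 9 reads in control, DMSO and BDE-209, and the endothelial marker PECAM1 had 8, 8 and 14. The hepatocyte marker APOA1 had 1 read, in DMSO only, and the endothelial marker CDH5 had 1 read, in BDE-209 only. Median RPKM over the 6 listed of 10 markers of other cells was 0.166, 0.239 and 0.239. As background, 8060 transcripts of all genes were listed in all 3 samples with a mean of 10 RPKM or more, a level that PSMA5 and PSMB2 did not reach.

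Short sequence stretches in the promoters are given first, as a description. Whether they bear on the levels or ratios of the members was not tested. RefSeq promoter windows (GRCh38.p14, 250 bases before to 50 after the start) were found for 26 members, using the first listed window for a gene with several; PSMA7, PSMB1, PSMB6, PSMB7 and PSMD4 had none. The letters TGACNNNGC, the core of the antioxidant response element that NFE2L1 is known to bind, were in 5 of the 26 windows on either strand (19.2%), against 13.6% of the windows of 27305 genes. The 3 matches wholly before the start belonged to PSMB3 (chr17:38752627-38752655, plus strand, ending at position -96 from the start), PSMD12 (chr17:67366724-67366752, minus strand, position -157) and PSMD3 (chr17:39980760-39980788, plus strand, position -29). They are printed 5′ to 3′ along the gene, with the matching letters in capitals.
PSMB3: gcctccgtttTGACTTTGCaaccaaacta
PSMD12: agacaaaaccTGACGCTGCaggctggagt
PSMD3: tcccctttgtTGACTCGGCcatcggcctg

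CCGGAAG, the core bound by transcription factors of the ETS family, was the motif whose share differed most between core and cap windows. It was in 9 of 16 cap windows (56.2%) and in 0 of 10 core windows, against 10.7% of all windows. Examples are PSMC6 (chr14:52707083-52707109, plus strand, position -101), PSMD6 (chr3:64023515-64023541, minus strand, position -31) and PSMD8 (chr19:38374544-38374570, plus strand, position -11, where the letters lie on the opposite strand).
PSMC6: acggggccaaCCGGAAGgggagggctc
PSMD6: ggagacgggaCCGGAAGccgggccgca
PSMD8: caaaagccaaCTTCCGGtcaccatctt
CCAAT boxes were in 14 of the 26 windows (53.8%, against 35.7% of all), 6 of 10 in the core and 8 of 16 in the cap. TATAAA was in 4 cap windows and in 0 core windows, or 15.4% of the members' windows against 12.0% of all. PSMB3, the core gene with a TGACNNNGC match, also held CCAAT letters at positions -51 and -9. A match is a description of the letters, and binding was not measured.

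Levels per length were of the same order in core and cap, and spread more widely in the core. The median member of the core had 104 RPKM in the control, 95.9 in DMSO and 97.7 in BDE-209, and the median member of the cap 84.9, 77.4 and 79.8. The core median was thus 1.22, 1.24 and 1.22 times the cap median. That order depends on the summary: geometric means were lower in the core, at 0.793, 0.811 and 0.813 of the cap. In the control the core ran from 1.18 to 207 RPKM, a range of 175-fold, and the cap from 13.6 to 141 RPKM, a range of 10.4-fold. Most of that difference rests on the low members. Among members of mean RPKM 30 or more, the control range was 3.28-fold in the core and 2.63-fold in the cap. Together the 31 members held 0.530% of the RPKM sum of the control, 0.507% of DMSO and 0.512% of BDE-209. Rankings of members below are by the 1 member transcript of each gene, and genes with several listed isoforms can rank higher with isoforms summed.

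**Figure D1:**
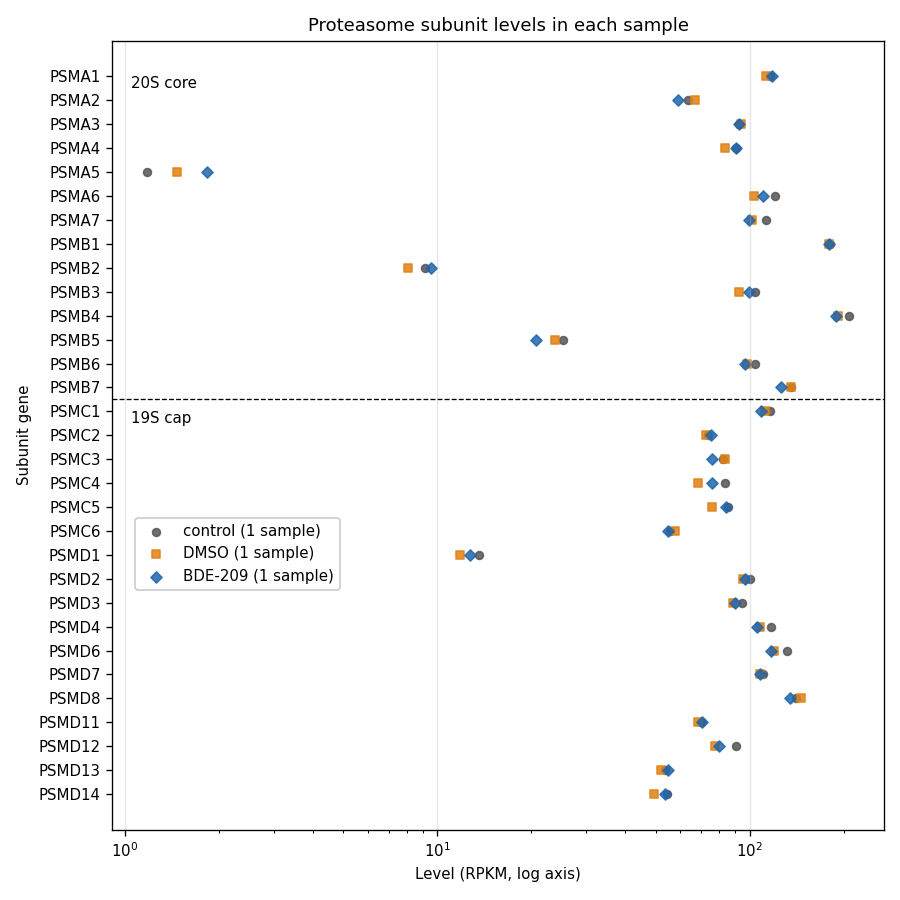
Level of each of the 31 subunits in RPKM (log axis) in the control (gray circles), DMSO (orange squares) and BDE-209 (blue diamonds), 1 sample each, with the 20S core above the dashed line and the 19S cap below. Of the members, 27 lie between 49.26 and 207.3 RPKM in every sample, and PSMA5, PSMB2, PSMB5 and PSMD1 lie under 30 RPKM.

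The alpha ring caps the chamber and gates entry. Of its 7 members, 6 were between 58.78 and 120.3 RPKM in every sample. PSMA6 (NM_002791; chr14:35747839-35786699 in GRCh37, plus strand) had the highest control level of the ring, 120.3 RPKM, against 103.4 in DMSO and 109.9 in BDE-209. PSMA1 (NM_002786) had 116.2 RPKM in the control, 113.1 in DMSO and 117.7 in BDE-209, a spread within counting error. PSMA7 (NM_002792) had 113.1, 102.0 and 99.52 RPKM. The control was thus highest for PSMA6 and PSMA7, but not for PSMA1. PSMA3 (NM_002788) was nearly level at 92.24, 93.43 and 92.15 RPKM. PSMA4 (NM_002789) had 90.27 RPKM in the control, 83.31 in DMSO and 90.20 in BDE-209. For PSMA2 (NM_002787) the values were 63.23, 66.76 and 58.78 RPKM, with DMSO on top and BDE-209 at the bottom.

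PSMA5 (NM_002790; chr1:109941664-109969070 in GRCh37, minus strand) stood apart from the other alpha subunits, although every 20S core contains it. It had 1.183 RPKM in the control (22 reads), 1.471 in DMSO (27 reads) and 1.838 in BDE-209 (33 reads). Control was lowest and BDE-209 highest, a log2 ratio of 0.636 with an interval from -0.186 to 1.484 that includes 0. Summed over its 3 listed isoforms, PSMA5 had 1.895, 2.303 and 2.746 RPKM. Of the 49-base windows that lie within 1 exon of its canonical GENCODE transcript, 0.207% have an exact copy elsewhere in GRCh37. PSMA5 was not alone among genes that growing cells use, since the chaperonin subunit CCT7 was not in the lists of control and DMSO and had 1 read in BDE-209, and the cap assembly chaperone PSMD5 had 10, 8 and 7 reads. CCT7 and PSMD5 are named here after their values were seen, and the reason for the low values was not tested.

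In the beta ring, PSMB4 (NM_002796) and PSMB1 (NM_002793), which carry no proteolytic site, had the highest RPKM of the 31 member transcripts. With isoforms summed, which may count a shared read more than once, PSMA1 was above both at 225.8, 218.8 and 230.2 RPKM. PSMB4 had 207.3 RPKM in the control, 191.3 in DMSO and 188.9 in BDE-209. PSMB1 had 180.0, 178.6 and 179.2 RPKM and a log2 ratio between -0.012 and 0.005 in each comparison. PSMB4 was highest in the control, while PSMB1 was level in the 3 samples. PSMB3 (NM_002795), another structural subunit, had 104.3 RPKM in the control, 92.29 in DMSO and 99.27 in BDE-209. PSMB2 (NM_002794) was far below these at 9.110, 8.041 and 9.525 RPKM, on a transcript of 4759 bases with 210, 183 and 212 reads. Adding its other listed isoform raised PSMB2 to 15.69, 14.14 and 16.15 RPKM, still below its neighbors in the ring.

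The catalytic beta subunits shared an order of samples. PSMB7 (NM_002799), the trypsin-like site, had 135.5 RPKM in the control, 135.3 in DMSO and 125.7 in BDE-209. PSMB6 (NM_002798), the caspase-like site, had 103.6, 98.28 and 96.21 RPKM. PSMB5 (NM_002797), the chymotrypsin-like site at which proteasome inhibitor drugs are aimed, had 25.20 RPKM in the control, 23.77 in DMSO and 20.71 in BDE-209. The listed isoforms of PSMB5 summed to 52.81, 49.77 and 43.75 RPKM. All 3 catalytic subunits were highest in the control and lowest in BDE-209. This order was found for 18.7% of the background transcripts. Their summed reads had a log2 ratio of -0.037 (interval -0.152 to 0.079) for DMSO against control, of -0.092 (interval -0.211 to 0.027) for BDE-209 against DMSO and of -0.129 (-0.247 to -0.011) for BDE-209 against control. The catalytic trio was picked out by function, yet 3 genes give no measure of spread between cultures.

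The 6 ATPases were the most even group, within a range of 2.09-fold in the control. PSMC1 (NM_002802), whose tail opens the gate of the core, was the highest with 115.7 RPKM in the control, 112.2 in DMSO and 108.9 in BDE-209. PSMC5 (NM_002805) had 84.87, 75.90 and 83.85 RPKM. PSMC4 (NM_006503; chr19:40477072-40487671 in GRCh37, plus strand) had 83.29 RPKM in the control, 68.22 in DMSO and 75.80 in BDE-209. PSMC4 and PSMC5 were both lowest in DMSO, with BDE-209 between DMSO and the control. PSMC3 (NM_002804) went otherwise, at 82.17 RPKM in the control, 83.23 in DMSO and 75.86 in BDE-209. PSMC2 (NM_002803) had 73.76, 72.41 and 75.29 RPKM. PSMC6 (NM_002806) had the lowest level of the ring, 55.39 RPKM in the control, 57.67 in DMSO and 54.83 in BDE-209. Levels of PSMC1 and PSMC6 are read with a limit, because 31.4% and 23.6% of the windows within 1 exon have exact copies elsewhere in the genome, and only uniquely mapped reads were kept. For PSMC1 that share is of a canonical transcript of 4390 bases, longer than the 1586 bases found for NM_002802. The limit also holds for PSMA6 of the alpha ring, with 17.5% exact copies. Counting copies with up to 2 mismatches, the shares were 36.5% for PSMC1, 53.6% for PSMC6, 82.2% for PSMA6 and 86.9% for PSMD4.

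The 3 members that are non-ATPase subunits of the base, PSMD1, PSMD2 and PSMD4, were all highest in the control, as were 34.8% of background transcripts. PSMD4 (NM_002810), a receptor for ubiquitin chains, had 116.9 RPKM in the control, 107.9 in DMSO and 105.6 in BDE-209, and 24.4% of its windows within 1 exon have exact copies elsewhere. PSMD2 (NM_002808), a large scaffold that docks ubiquitin shuttles, had 100.5, 95.40 and 96.54 RPKM, and being long it had the most reads of all members (1455, 1364 and 1350). PSMD1 (NM_002807), the other large scaffold, had 13.58 RPKM in the control, 11.87 in DMSO and 12.72 in BDE-209. PSMD1 and PSMD2 are present in equal number in each cap, but PSMD1 was listed at a far lower level. Summing the 3 listed isoforms of PSMD1 gave 27.74, 24.32 and 25.97 RPKM, which left it below PSMD2.

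The lid had 8 members between 49.26 and 145.5 RPKM. PSMD8 (NM_002812) was the highest, with 140.6 RPKM in the control, 145.5 in DMSO and 134.1 in BDE-209. PSMD6 (NM_014814; chr3:63996226-64009686 in GRCh37, minus strand) had 131.2, 119.9 and 116.7 RPKM. PSMD7 (NM_002811), the structural partner of the deubiquitinase, had 109.9 RPKM in the control, 107.7 in DMSO and 108.1 in BDE-209. Of these, PSMD6 alone was lower in BDE-209 than in the control beyond counting error. PSMD3 (NM_002809), a scaffold of the lid, had 94.11 RPKM in the control, 88.30 in DMSO and 89.70 in BDE-209. PSMD12 (NM_002816; chr17:65334032-65362721 in GRCh37, minus strand), whose promoter stretch is printed above, had 90.14 RPKM in the control, 77.35 in DMSO and 79.80 in BDE-209. Both scaffolds were highest in the control, with DMSO and BDE-209 close together. PSMD11 (NM_002815) had 69.90, 68.31 and 70.25 RPKM. PSMD14 (NM_005805), the deubiquitinase that cuts chains off substrates, had 54.29 RPKM in the control, 49.26 in DMSO and 53.61 in BDE-209. PSMD13 (NM_002817) had 53.47, 51.89 and 54.64 RPKM. PSMD11 and PSMD13 were lowest in DMSO and highest in BDE-209, though within counting error.

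Ratios were then taken for each pair of samples. In DMSO against control, 25 of 31 members were lower in DMSO, against 48.5% of the 8060 background transcripts. The median log2 ratio was -0.080 in the core and -0.075 in the cap, with 0.005 over the background. Core minus cap was -0.005. Summed over all members there were 19006 reads in the control and 17805 in DMSO, a log2 ratio at the read totals of -0.076 (95% Clopper-Pearson interval -0.105 to -0.046), or 0.949-fold. The core sum had -0.073 (-0.123 to -0.024) and the cap sum -0.077 (-0.114 to -0.040). At the study's uniquely mapped totals, an alternative added after seeing the data, the sum of all members had -0.034 (-0.064 to -0.005) while the background median moved to 0.046, and 19 of 31 members were lower, against 35.5% of the background. There the core sum had -0.032 (-0.081 to 0.017) and the cap sum -0.035 (-0.073 to 0.002), with intervals that include 0. The members lay below the background at the recovered totals. The study's totals move members and background by the same amount, so they cannot test the gap between them. The size of the shift from 0 depended on the totals. In every group the shift was small at the recovered totals: alpha ring -0.073, beta ring -0.074, ATPase ring -0.071, non-ATPase base -0.098 and lid -0.072 for the summed reads. All 7 beta subunits were lower in DMSO, by between 0.001 and 0.180 on the log2 scale.

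Single members gave less than the sum. The interval lay below 0 for 3 members, PSMC4 with -0.288 (-0.466 to -0.111), PSMD12 with -0.221 (-0.371 to -0.071) and PSMA6 with -0.218 (-0.390 to -0.045), against 5.25% of the background below and 6.60% above, where no member lay. A ratio of 1.2-fold or more was found for 2 members, PSMC4 lower (0.819-fold) and PSMA5 higher (1.24-fold, interval including 1), against 7.63% of the background. At 2-fold, the study's threshold, there were 0 members, against 0.0868%. The other isoform of PSMC4 (NM_153001) had 82.40 RPKM in the control and 65.05 in DMSO, and that of PSMD12 (NM_174871) had 91.76 and 78.98 RPKM, but isoforms share most of their reads and are no separate measurement. The log2 ratios of the 31 members had an SD of 0.114, and counting alone would give 0.118. For the 27 members of mean RPKM 30 or more, the SD was 0.091 and counting alone would give 0.084.

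**Figure D2:**
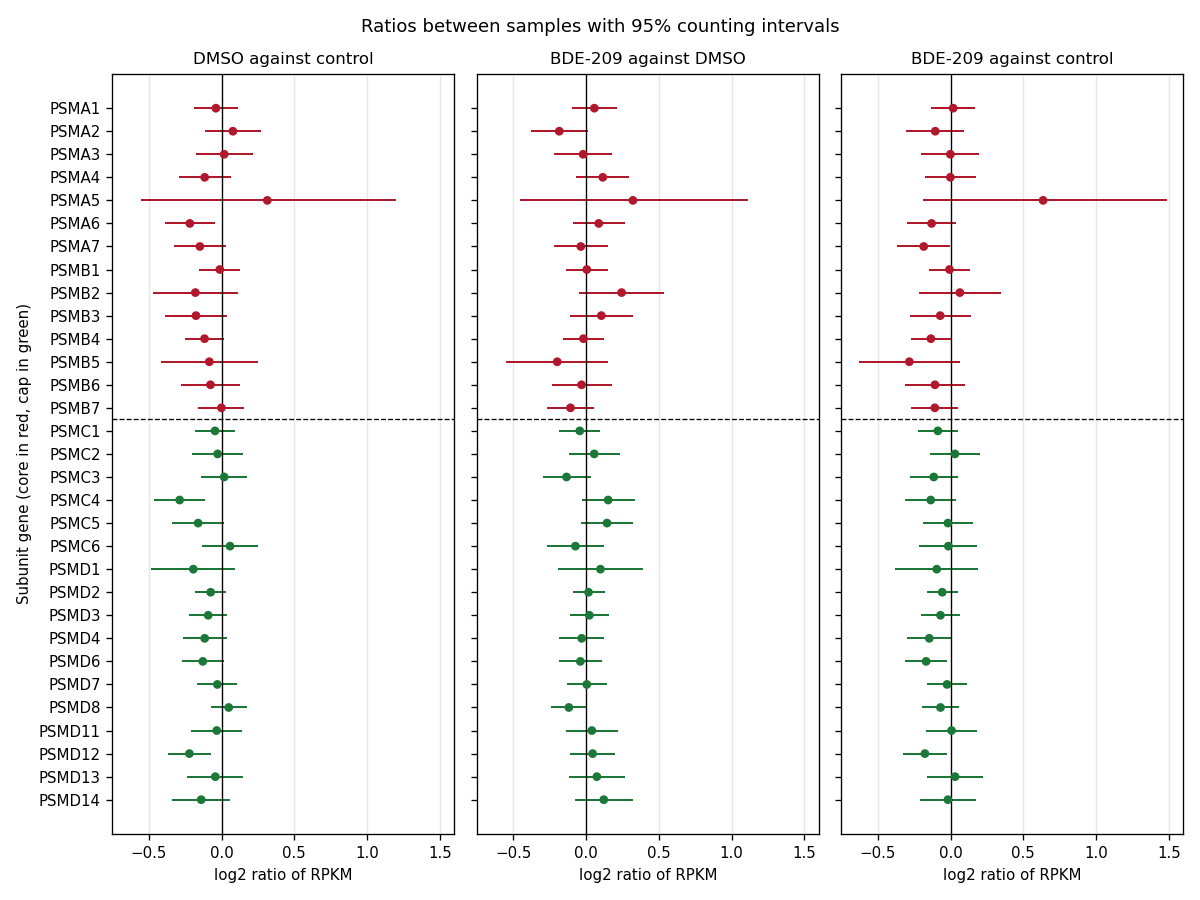
Log2 ratio of RPKM for each subunit (points) with its 95% counting interval (lines) in the 3 pairs of samples, core in red and cap in green. PSMA6, PSMC4 and PSMD12 have intervals below 0 in DMSO against control, PSMA7, PSMD6 and PSMD12 in BDE-209 against control, and no member has one off 0 in BDE-209 against DMSO.

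BDE-209 against DMSO asks for the effect of the compound in its own solvent. Here 13 of 31 members were lower in BDE-209 and 18 higher, against 51.7% of the background lower. The median log2 ratio was -0.007 in the core and 0.023 in the cap, and core minus cap was -0.029. The sign of the core median turned to 0.006 when all samples were scaled to the same RPKM total. Summed reads of all members had a log2 ratio of 0.005 (-0.026 to 0.035), those of the core 0.003 (-0.048 to 0.053) and those of the cap 0.006 (-0.032 to 0.044). At the study's uniquely mapped totals the sum of all members was -0.035 (-0.065 to -0.005), with a background median of -0.044, and the cap median turned to -0.017. The core sum was then -0.037 (-0.087 to 0.013) and the cap sum -0.034 (-0.071 to 0.004). The shift of the members relative to the background was small, and it is the same by construction under both scalings. Variation between cultures is not covered.

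At the recovered totals, intervals off 0 were found for 0 members in either direction, while 3.87% of the background lay below and 3.64% above. PSMA5, with 27 and 33 reads, was the 1 member at 1.2-fold or more (1.25-fold, log2 interval -0.457 to 1.111), against 5.71% of the background. At 2-fold there were 0, against 0.0620%. The lowest ratios were -0.198 (-0.551 to 0.153) for PSMB5 and -0.184 (-0.379 to 0.012) for PSMA2, and the highest after PSMA5 were 0.244 (-0.048 to 0.538) for PSMB2 and 0.152 (-0.031 to 0.335) for PSMC4. The SD over the members was 0.115, as large as counting alone would give (0.115).

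BDE-209 against control shares the control with the first comparison and the BDE-209 sample with the second. Lower in BDE-209 were 25 of 31 members, against 49.8% of the background. The median log2 ratio was -0.088 in the core and -0.069 in the cap, with 0.001 over the background, and core minus cap was -0.020. The summed reads, 19006 in the control and 17469 in BDE-209, had a log2 ratio of -0.071 (-0.101 to -0.041), or 0.952-fold, with -0.071 in both core (-0.120 to -0.021) and cap (-0.108 to -0.034). Below 0 lay the intervals of PSMA7 with -0.184 (-0.367 to -0.002), PSMD12 with -0.176 (-0.326 to -0.026) and PSMD6 with -0.168 (-0.315 to -0.022), against 6.19% of the background, and above 0 none, against 6.54%. At 1.2-fold or more were PSMA5 (1.55-fold) and PSMB5 (0.822-fold, log2 interval -0.630 to 0.062), against 8.40% of the background, and at 2-fold 0 members, against 0.0620%. The SD over the members was 0.149, above the 0.116 that counting alone would give. For the 27 members of mean RPKM 30 or more, it was 0.067, against 0.084 from counting.

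**Figure D3:**
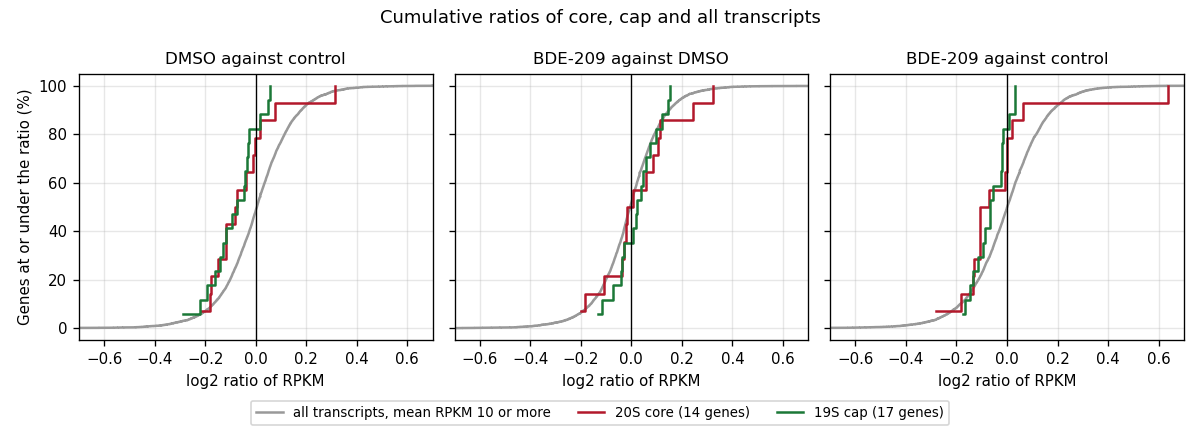
Cumulative share (%) of genes at or under each log2 ratio of RPKM for the core (red, 14 genes), the cap (green, 17 genes) and the 8060 background transcripts (gray). Core and cap lie left of the gray line over most of its length in both comparisons with the control and cross it in BDE-209 against DMSO, where their medians are -0.007 and 0.023.

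The order of the samples shows the same values in another way. The control was highest for 20 of 31 members (64.5%), against 34.8% of background transcripts, and lowest only for PSMA5, or 3.23% against 36.6%. DMSO was lowest for 17 members (54.8%) and BDE-209 for 13 (41.9%), against 29.8% and 33.7% of the background. Core and cap had the control on top at about the same rate, 9 of 14 (64.3%) and 11 of 17 (64.7%). Within the cap, DMSO was lowest for 11 of 17 members (64.7%), and within the core, BDE-209 was lowest for 7 of 14. Without the 4 members under 30 RPKM the control was highest for 18 of 27 and lowest for 0. A library effect of the single control sample and an effect of the medium cannot be told apart, as they are the same sample.

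Genes that act around the proteasome were counted for comparison, with 1 transcript a gene. For genes with several listed transcripts the reads found can be too few, which widens an interval and lowers the gene's weight in a sum. The 5 activators and inhibitors had summed reads of -0.044 (-0.103 to 0.015) for DMSO against control and of -0.014 (-0.074 to 0.046) for BDE-209 against DMSO. Of these, the nuclear activator subunit PSME3 had 126.4 RPKM in the control, 113.2 in DMSO and 120.5 in BDE-209, a log2 ratio of -0.158 (-0.252 to -0.064) for DMSO against control. The inhibitor PSMF1 had 55.60, 58.41 and 51.97 RPKM and -0.169 (-0.299 to -0.038) for BDE-209 against DMSO. Cap-associated proteins had summed reads close to the members' own, -0.067 (-0.135 to 0.000) for DMSO against control. Among them ADRM1, the ubiquitin receptor, had 72.19, 76.82 and 68.70 RPKM, the small lid subunit SHFM1 had 94.91, 91.62 and 89.90 RPKM, and TXNL1 had 57.01, 60.58 and 60.66 RPKM, all with intervals that include 0. The deubiquitinase USP14, named after its values were seen, had 40.29, 35.83 and 36.01 RPKM and -0.169 (-0.317 to -0.022) in DMSO against control, and the ubiquitin ligase UBE3C had 54.01, 49.23 and 51.74 RPKM and -0.134 (-0.246 to -0.021).

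The assembly chaperones, which put the subunits together, had -0.002 (-0.112 to 0.108) for the sum of 8 genes in DMSO against control, an interval that also holds the members' -0.076. NFE2L1 itself had 30.56, 30.14 and 31.56 RPKM, and the unfoldase VCP, which releases it from the endoplasmic reticulum, 101.5, 101.8 and 102.2 RPKM. The sum of the 5 genes of this axis had -0.004 (-0.078 to 0.071), 0.005 (-0.070 to 0.080) and 0.002 (-0.073 to 0.076) in the 3 comparisons. Ubiquitin genes with the activating enzymes had 0.016 (-0.015 to 0.048) for DMSO against control and -0.033 (-0.065 to -0.001) for BDE-209 against DMSO. Ubiquitin shuttles had -0.040 (-0.093 to 0.012) for DMSO against control.

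Other large complexes served as a gauge. The COP9 signalosome, a relative of the lid, had -0.010 (-0.068 to 0.049) for DMSO against control and -0.005 (-0.064 to 0.054) for BDE-209 against DMSO over its 9 genes. The CCT chaperonin had -0.089 (-0.121 to -0.058) for DMSO against control, with 6 of 7 genes lower, and 0.043 (0.011 to 0.075) for BDE-209 against DMSO. These values are at the recovered totals, and the study's totals shift any sum by 0.042 and -0.039 in these comparisons. The shift of the subunits in DMSO against control thus had a like value in the CCT genes. Of the inducible core subunits of immune cells, PSMB8 was not listed, PSMB9 had at most 0.6121 RPKM and PSMB10 had 7.162, 7.047 and 4.450 RPKM. No gene of these lists was both 1.2-fold or more and outside counting error in any comparison.

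**Figure D4:**
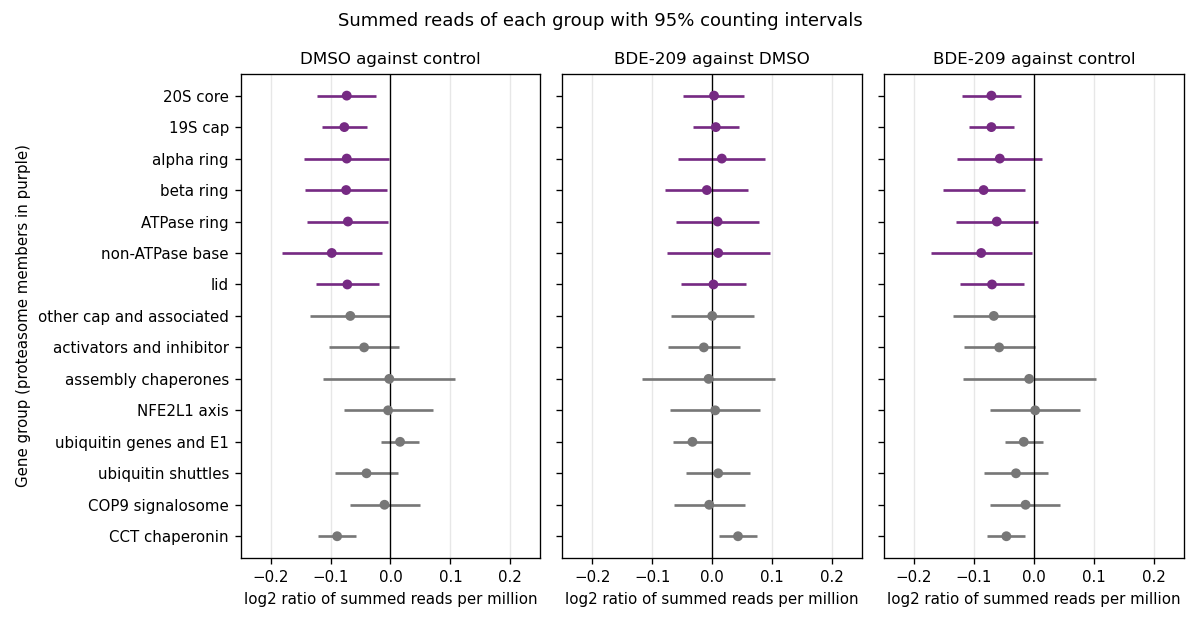
Log2 ratio of the summed reads, at the read totals, of each gene group (points) with 95% counting intervals (lines) in the 3 pairs of samples, proteasome members in purple and other lists in gray. Core (-0.073) and cap (-0.077) lie below 0 in DMSO against control together with the CCT chaperonin (-0.089), and the intervals of both include 0 in BDE-209 against DMSO, at the recovered totals.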

How the data were processed

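PolyA-enriched RNA of 3 samples, 1 per condition, was read from 1 end over 49 bases. Alignment to hg19 allowed at most 2 mismatches, and reads with more than 1 position were dropped. The authors deposited these data as RPKM per RefSeq transcript. How reads shared by isoforms were counted, and the annotation release, are not given in the sources used here. A transcript missing from a list was set to 0.

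From there, read totals were recovered from the steps of the RPKM values. Reads were the smallest whole numbers fitting a transcript's values, with a length no shorter than its coding sequence (GENCODE 44 lifted to GRCh37). On simulated data for DMSO against control, all reads were recovered for 92.4% of 2141 transcripts, and intervals held the true ratio for 95.6%. The simulation took the recovered lengths as true and set no coding-length minimum. It therefore cannot show how often the reads found in the real data were too few. Symbols from the RefSeq table (GRCh38.p14) matched 96.0% of transcripts. Log2 ratios had no pseudocount, and Clopper-Pearson intervals (95%) used the recovered totals. Windows of 49 bases were searched for exact copies, and for copies with up to 2 mismatches, elsewhere in GRCh37.

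Members and lists were chosen with earlier results of these data known. All 31 members are named. Of the other lists, the rule names genes over 1.2-fold with an interval off 0 and otherwise up to 4 with the highest mean RPKM, 1 transcript a gene. Alternatives covered scaling (the study's read totals included), added RPKM, isoform sums and the fold and interval thresholds. The software was Python 3.11.15 with numpy 2.4.6, pandas 2.3.3, scipy 1.17.1 and matplotlib 3.10.9.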

Additional observations from a re-analysis of the deposited data

How the results depend on the processing

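Over 24 results and 117 alternatives, 85 values moved by less than the limit set for them, 28 moved further and 4 turned direction, all of them core over cap. The core median of BDE-209 against DMSO, whose interval includes 0, also changed sign, from -0.007 to 0.006 with the same RPKM total in each sample and 0.002 with isoforms summed. The counts of members at 1.2-fold or more rested on few genes: for DMSO against control the count was 2 and became 0 at 1.5-fold, 0 at 2-fold and 1 with 0.5 added to RPKM. For BDE-209 against DMSO the count was 1 and became 0 at 1.5-fold, at 2-fold, with 0.5 added and with isoforms summed. For BDE-209 against control it was 2 and became 1 at 1.5-fold, 0 at 2-fold and 1 with the same RPKM total in each sample. In that comparison the members with an interval off 0 went from 3 to 5 with median-of-ratios scaling and to 0 with 99% intervals. Core over cap became 0.793, 0.811 and 0.813 in control, DMSO and BDE-209 with geometric means, 1.130, 1.032 and 0.998 with isoforms summed, and 1.292 in the control without members under 30 RPKM, the last chosen after seeing the data. Geometric means without those 4 members were 115 RPKM in the core and 87.2 in the cap of the control. Summed isoforms may count a shared read more than once. Scaled to the study's uniquely mapped totals, an alternative added after seeing the data, the cap median was -0.033 for DMSO against control and -0.017 for BDE-209 against DMSO, the members at 1.2-fold or more in DMSO against control were 1, and the members with an interval off 0 in BDE-209 against DMSO rose from 0 to 3. At those totals 65.7% of the background was lower in BDE-209 than in DMSO. Background shares with an interval off 0 were not counted under this scaling, median-of-ratios scaling or 99% intervals. Background shares past 1.2-fold were not counted under the other scalings, with added RPKM or with isoforms summed, nor were shares past 1.5-fold. The counts of members in those settings thus have no background share to be read against. The background share past 1.2-fold rose to between 35.65% and 37.83% with no filter on low values and was 1.83%, 0.99% and 2.98% at a mean of 50 RPKM or more, where 17.67%, 10.72% and 18.71% had an interval off 0. The core and cap medians in both comparisons with the control were below 0 under every alternative run. At this depth the interval of PSMB3, with 396 reads in the control, ran from -0.389 to 0.035 in DMSO against control. No paired analysis was possible because each condition had 1 sample.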
